A study of Mus musculus with 4 samples.

Results

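The amino acid transporter genes described here were the 60 autosomal protein-coding RefSeq genes (GRCm38.p6) whose symbols begin with Slc1a, Slc3a, Slc6a, Slc7a, Slc36a, Slc38a or Slc43a, out of 20665 autosomal protein-coding genes. They comprised 7 Slc1a, 2 Slc3a, 15 Slc7a, 3 Slc43a, 10 Slc38a, 4 Slc36a and 19 Slc6a genes. The name rule also took in Slc7a6os, which lies beside Slc7a6 and is not a transporter by its name, and Slc6a carriers of monoamines and other small molecules. Binding of the transcription factor Tfcp2l1 at these genes was measured in mouse embryonic stem cells of wild-type genotype by ChIP-seq, the sequencing of chromatin fragments pulled down with an antibody. The labels name no treatment beyond the culture medium, which held LIF at 1000 units/mL, the GSK3 inhibitor CHIR99021 at 3 µM and the MEK inhibitor PD0325901 at 1 µM, a mixture known as 2i with LIF. There were 4 libraries, a ChIP library made with a custom antibody and an input library of unenriched chromatin in each of 2 repeats. The labels do not name the cell line or say whether the repeats were separate cultures, and no library from cells without the factor was analysed here.

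Cells take up amino acids through membrane carriers of several solute carrier families, which exchange one amino acid for another or couple uptake to sodium or protons. Leucine and cystine largely enter through pairs of a glycoprotein heavy chain (Slc3a) and a transport subunit called a light chain (Slc7a). Cationic amino acids enter above all through the Slc7a1 type of carrier, and glutamine through Slc1a5 and Slc38a carriers. In mouse embryonic stem cells, amino acid supply, threonine and glutamine above all, is known to affect self-renewal and the methylation of histones and DNA. Tfcp2l1 belongs to the CP2 family, which recognises pairs of short half-sites resembling CCAG or CCGG, and it sustains the naive state downstream of LIF.

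A peak is a region that the authors called with more ChIP than input tags, a tag being an aligned read, and its summit is the position of highest signal. Fold enrichment is the authors' value for each peak, its tags at the summit divided by the number that local background would give. A shared peak is one of repeat 1 that at least 1 bp of a repeat 2 peak covers, and it was assigned to a gene if its repeat 1 summit lay inside the gene or within 10 kb of its ends. Shared peaks are counted as peaks of repeat 1, so 1 repeat 2 peak can match 2 of them. This was so for 6 of the transporters' shared peaks, at Slc38a1, Slc43a1 and Slc6a16. Where a pair of fold enrichments is given, the first is from repeat 1, and the higher value is used where several peaks of repeat 2 overlapped. The strongest peak of a gene is the one whose lower value of the pair is highest. The lists held 57614 and 51610 peaks from 19353473 and 22555373 filtered ChIP tags, of which 191 and 166 lay at the transporter genes. As a look at the cell type from binding alone, Nanog had 5 shared peaks, Esrrb 21, Klf4 3 and Tfcp2l1 8. RNA was not analysed here, so these counts describe binding and not expression.

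The promoters that carry a shared summit are shown first, because there the binding lies on the start site itself. RefSeq promoter sequences (GRCm38.p6, from 250 bases before to 50 after a start site) were available for 44 of the 60 genes, in 65 promoters, since some genes have several start sites. A shared peak overlapped 17 of these 65 promoters (26.2%), at 13 genes, against 24.6% of all 20085 autosomal promoters. The genes without a promoter sequence, whose start sites could not be examined, included Slc38a1, Slc7a5, Slc6a6, Slc1a5, Slc43a3 and Slc6a7. Of these, Slc38a1, Slc7a5 and Slc43a3 had a shared summit 0.015, 0.097 and 0.197 kb from an end of the gene. Whether that end holds a start site was not examined. A shared summit lay in 8.83% of all autosomal promoters and in 4 of the 65 (6.15%), those of Slc43a2, Slc7a6, Slc7a1 and Slc7a8. The 250 bases before each of these start sites follow, 5′ to 3′ on the gene's strand, with a second Slc43a2 promoter further downstream that lies under the same peak. Capitals mark matches on either strand to a relaxed form of the CP2 half-site pair, CCNG, 6 bases of any kind and CCNG, as far as they lie within these bases, and every match to the strict form named below is also one to this form.
Slc43a2 first promoter, plus strand, chr11:75531444-75531693: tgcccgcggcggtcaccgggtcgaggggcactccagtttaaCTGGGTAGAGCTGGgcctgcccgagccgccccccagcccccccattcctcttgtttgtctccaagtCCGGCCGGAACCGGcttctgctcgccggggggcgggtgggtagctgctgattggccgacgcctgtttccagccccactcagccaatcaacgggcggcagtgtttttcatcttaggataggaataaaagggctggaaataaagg
Slc43a2 second promoter, plus strand, chr11:75531862-75532111: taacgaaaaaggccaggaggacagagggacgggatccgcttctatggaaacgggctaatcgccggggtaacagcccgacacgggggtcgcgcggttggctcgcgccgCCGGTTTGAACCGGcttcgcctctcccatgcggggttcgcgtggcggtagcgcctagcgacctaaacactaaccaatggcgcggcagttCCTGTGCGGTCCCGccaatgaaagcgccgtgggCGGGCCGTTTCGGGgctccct
Slc7a6, plus strand, chr8:106168671-106168920: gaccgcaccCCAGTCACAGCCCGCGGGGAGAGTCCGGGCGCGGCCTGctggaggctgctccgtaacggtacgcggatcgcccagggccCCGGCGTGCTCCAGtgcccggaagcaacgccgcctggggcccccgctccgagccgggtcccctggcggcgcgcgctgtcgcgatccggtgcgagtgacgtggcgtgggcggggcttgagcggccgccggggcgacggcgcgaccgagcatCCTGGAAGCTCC
Slc7a1, minus strand, chr5:148399905-148400154: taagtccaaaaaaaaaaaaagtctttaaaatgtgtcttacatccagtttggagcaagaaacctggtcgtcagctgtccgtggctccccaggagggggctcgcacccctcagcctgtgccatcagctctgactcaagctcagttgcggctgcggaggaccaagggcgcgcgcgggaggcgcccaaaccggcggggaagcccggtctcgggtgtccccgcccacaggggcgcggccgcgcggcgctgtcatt
Slc7a8, minus strand, chr14:54781887-54782136: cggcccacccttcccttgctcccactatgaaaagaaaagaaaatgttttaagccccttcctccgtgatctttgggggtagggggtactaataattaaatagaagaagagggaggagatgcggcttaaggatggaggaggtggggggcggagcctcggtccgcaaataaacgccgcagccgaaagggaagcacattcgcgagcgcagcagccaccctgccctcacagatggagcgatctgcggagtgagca

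The summit lay 69 bp before the first Slc43a2 start site, 8 bp before that of Slc7a6, 8 bp before that of Slc7a1 and 24 bp before that of Slc7a8. The first Slc43a2 promoter held the only match among all 65 promoters to the strict form, CCAG, 6 bases and CCAG, which begins 209 bases before the start site on the minus strand. It also held a relaxed match on both strands 143 bases before the start site, and one on the minus strand 34 bases after it, beyond the bases shown. The second Slc43a2 promoter held relaxed matches 143 bases before its own start site on both strands, and at 54 and 21 bases. In the Slc7a6 promoter, relaxed matches began 241, 227, 217, 162, 12 and 11 bases before the start site, the last of these overlapping each other. The Slc7a1 and Slc7a8 promoters shown held no match in any part of their 300 bases. Among all 20085 autosomal promoters of the same length, 3.52% held the strict form and 34.9% the relaxed form. Where a shared summit lay in the promoter these shares were 6.76% and 55.6% of 1774 promoters. Of the transporters' 65 promoters, 21 held a relaxed match (32.3%). A match of letters is a description and was not tested as a binding site.

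Of the 60 transporter genes, 46 had at least 1 shared peak (76.7%), against 66.9% of all autosomal protein-coding genes. The windows of the transporter genes were longer, with a median of 54.8 kb for the gene and its flanks against 37.5 kb for all genes, and longer windows held peaks more often. With all genes weighted to the same 4 classes of window length (under 30, 30 to 50, 50 to 80, and 80 kb or more), the share of all genes was 76.3%, close to that of the transporters. The mean number of shared peaks per gene was 2.55, against 2.46 with that weighting. A shared peak of at least 20-fold in both repeats was present at 23 genes (38.3%), against 31.8% of all genes, and 12 genes had at least 5 shared peaks (20%), against 11.6%. These last shares of all genes were not weighted to window length. At least 5 shared peaks were found at 2.66% of all genes in the shortest class of window and at 31.5% in the longest. Of the 14 genes without a shared peak, 9 had no peak of either repeat and 5 had only peaks that were not shared. Among these 5, Slc38a6 had peaks in both repeats that did not overlap, and Slc1a2, Slc1a6, Slc38a3 and Slc6a11 had peaks in a single repeat. The transporters as a whole thus had a share near the background for genes of their length, and the description below concerns how the families and single genes were spread around it.

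**Figure D1:**
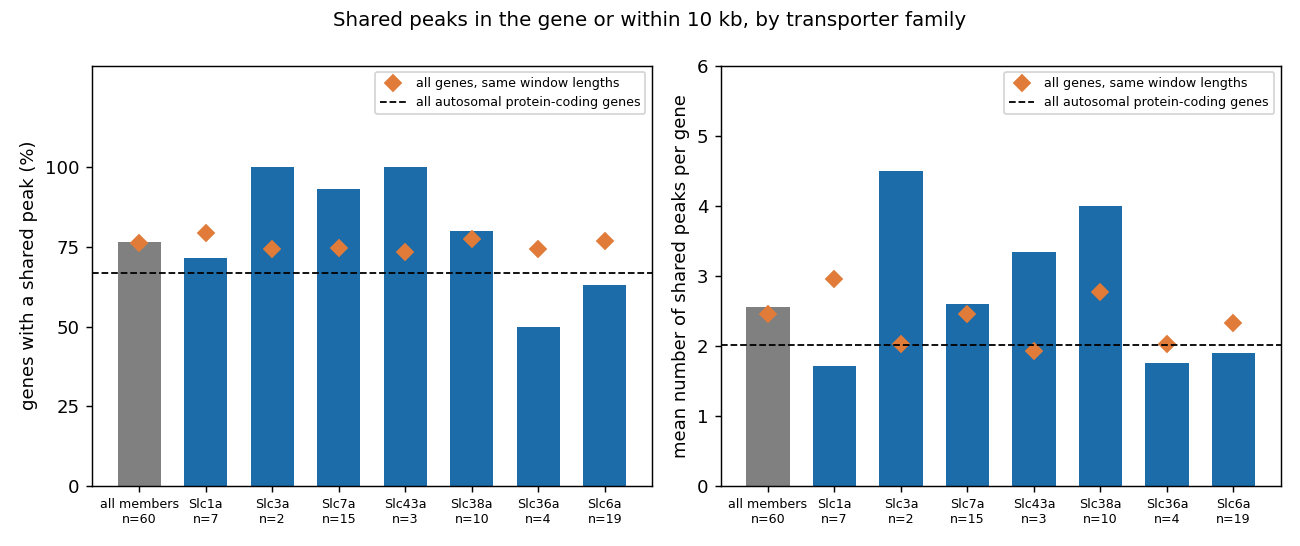
Left, percentage of genes with a shared peak in the gene or within 10 kb (bars), for all 60 transporter genes and each family (n under each bar). Right, mean number of shared peaks per gene. Diamonds give the value over all autosomal protein-coding genes weighted to the window lengths of that family, and the dashed line the value over all autosomal genes (66.9% and 2.01). Slc7a, Slc3a and Slc43a lie above their diamonds in the left panel and Slc1a, Slc36a and Slc6a below, while Slc38a is close to its own.

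The families differed in how many of their genes had a shared peak. Both Slc3a genes and all 3 Slc43a genes had one, as did 14 of 15 Slc7a genes (93.3%) and 8 of 10 Slc38a genes (80%), compared with 5 of 7 Slc1a (71.4%), 12 of 19 Slc6a (63.2%) and 2 of 4 Slc36a genes (50.0%). Over all genes of the same window lengths the shares were 74.9% for Slc7a, 77.5% for Slc38a, 79.4% for Slc1a and 76.8% for Slc6a. The mean number of shared peaks per gene, beside that of all genes of the same window lengths, was 4.5 against 2.02 for Slc3a, 3.33 against 1.93 for Slc43a, 4 against 2.77 for Slc38a and 1.71 against 2.96 for Slc1a. The means of the other families lay nearer to that background, with 2.6 against 2.45 for Slc7a, 1.75 against 2.02 for Slc36a and 1.89 against 2.33 for Slc6a. Slc38a1 alone held 12 of the 40 Slc38a peaks, and the median of that family was 3. With a limit of 20-fold in both repeats, both Slc3a, all 3 Slc43a, 5 of 10 Slc38a, 6 of 15 Slc7a (40%), 5 of 19 Slc6a (26.3%), 1 of 4 Slc36a and 1 of 7 Slc1a genes had a shared peak, against 31.8% of all genes without weighting to window length. No test of the families was made, since genes are not replicates and there were only 2 repeats. The Slc7a count depended on the flanks, falling to 9 of 15 (60%) with flanks of 1 kb and with the gene alone, where the shares of all genes were 53.5% and 46.5%.

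**Figure D2:**
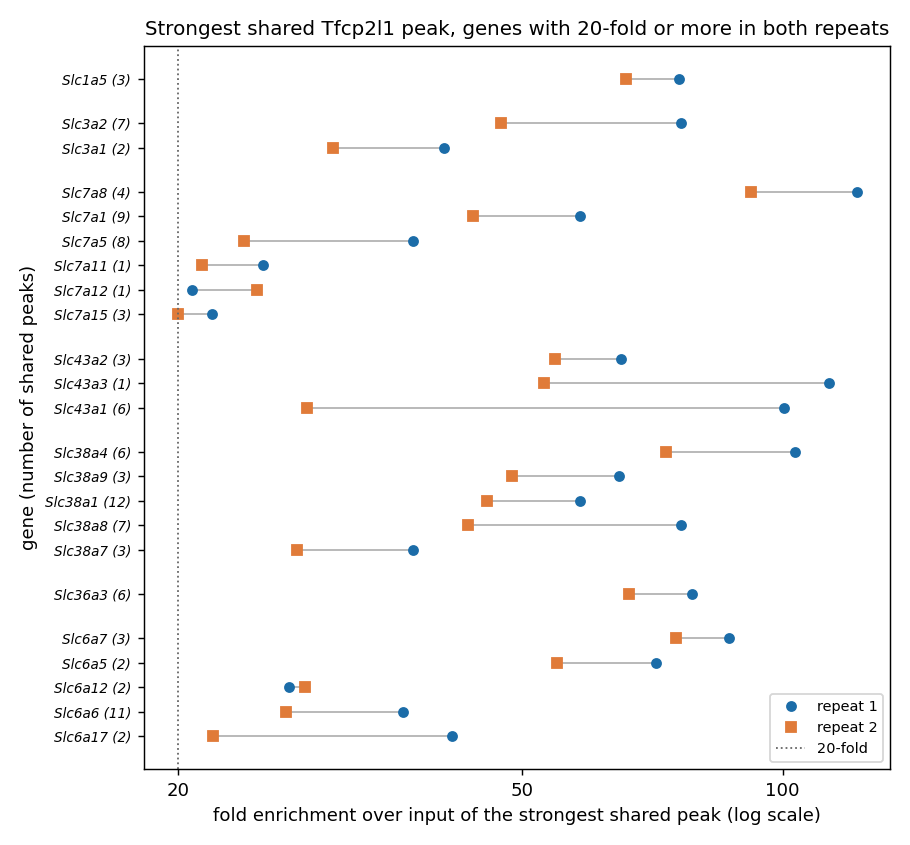
Fold enrichment over input (log axis) of the strongest shared peak at each of the 23 genes where it reached 20-fold in both repeats, in repeat 1 (circles) and repeat 2 (squares), ordered by family and by the lower of both values, with the number of shared peaks in parentheses. The dotted line is 20-fold. Slc7a8 has the highest pair, 122-fold and 91.8-fold, and Slc43a1 has the widest gap between repeats.

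The heavy chain genes, Slc3a, encode the glycoproteins that carry light chains to the cell surface. Slc3a2, whose product is also known as CD98 and partners most light chains, had 7 shared peaks in a gene of 16.5 kb and its flanks. Its strongest lay inside the gene at chr19:8712582-8714583, 772 bp from a RefSeq start site, with 76.2-fold and 47.3-fold. That peak held 15.7 RPM (13.99 to 17.6) in repeat 1 and 11.97 (10.6 to 13.5) in repeat 2, where RPM stands for tags per 1000000 filtered ChIP tags of that repeat and the range in parentheses is an exact Poisson 95% interval that covers counting error only. The other 6 peaks of Slc3a2 ranged between 5.20-fold and 12.3-fold in repeat 1, and between 5.31-fold and 12.95-fold in repeat 2, so 1 site stood far above the rest. Slc3a1, the heavy chain of the kidney cystine carrier, had 2 shared peaks, one inside the gene with 20.5-fold and 10-fold and one 9.49 kb before it with 40.6-fold and 30.2-fold. The second of these lay inside the neighbouring gene Ppm1b.

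The light chain genes of Slc7a provide the transport path of these pairs. Slc7a8, the light chain of a broad neutral amino acid exchanger, had the strongest peak of all 60 genes, inside the gene at chr14:54754237-54755466, with 122-fold and 91.8-fold. It held 19.1 RPM (17.2 to 21.1) in repeat 1 and 15.9 (14.3 to 17.7) in repeat 2. A second strong peak of Slc7a8, 7.17 kb beyond the gene, had 61.95-fold and 45.4-fold and lay closer to Cebpe, and the peak on its start site had 18.7-fold and 12.6-fold. Slc7a5, the main importer of leucine and other large neutral amino acids, had 8 shared peaks in a gene of 26.5 kb and its flanks. The strongest, at chr8:121895414-121899536, had 37.5-fold and 23.9-fold and held 26.2 RPM (23.97 to 28.6) in repeat 1 and 9.89 (8.63 to 11.3) in repeat 2. The authors' peak was 4123 bp long there in repeat 1 and 1730 bp in repeat 2, so these tag counts cover different lengths. Slc7a11, the light chain of the cystine and glutamate exchanger, had 1 shared peak in a gene of 134 kb, with 25.1-fold and 21.3-fold. Slc7a12 had 1 peak 1.82 kb from the gene with 20.8-fold and 24.7-fold, and Slc7a15 had 3 peaks inside the gene, the strongest with 21.9-fold and 20.01-fold.

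Among the other light chains, Slc7a7, which exports cationic amino acids, had 4 peaks inside the gene, the strongest with 26.3-fold and 18.8-fold. Slc7a6, a closely related exchanger, had the single peak on its start site described above, with 20.5-fold and 13.3-fold. Slc7a9, the kidney partner of Slc3a1, had 3 peaks of at most 9.05-fold in either repeat, and Slc7a10, an exchanger of small neutral amino acids in brain, had 1 at 9.10 kb with 10.6-fold and 6.79-fold. Slc7a13 was the only light chain gene without a peak of either repeat, and the nearest shared peak was 68.4 kb away. Slc7a6os had 1 peak, 3.04 kb from the gene and inside Prmt7, with 12.03-fold and 8.63-fold.

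Slc7a1, the general carrier of arginine and lysine, had 9 shared peaks, the most in its family. They were spread along the gene of 72.5 kb. The peak on its start site, at chr5:148399162-148400591, had 85.8-fold and 40.03-fold, and the one near its far end, at chr5:148332319-148333512, had 58.3-fold and 43.9-fold. The start site peak held 13.7 RPM (12.1 to 15.4) in repeat 1 and 7.98 (6.86 to 9.24) in repeat 2, and in both repeats it was among the 2 peaks of the gene with the highest enrichment. A peak 722 bp from a second start site had 37.3-fold and 29.04-fold, and the other 6 lay between 10.7-fold and 31.0-fold in repeat 1 and between 9.42-fold and 16.5-fold in repeat 2. The other genes grouped with it by sequence each had 1 shared peak. That of Slc7a2, an arginine carrier of liver and macrophages, lay 5.70 kb away inside Pdgfrl (21.7-fold and 14.9-fold), that of Slc7a4 9.74 kb away inside P2rx6 (12.1-fold and 20-fold), and that of Slc7a14 52.1 kb from the nearer gene end, inside the gene (6.35-fold and 6.43-fold).

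**Figure D3:**
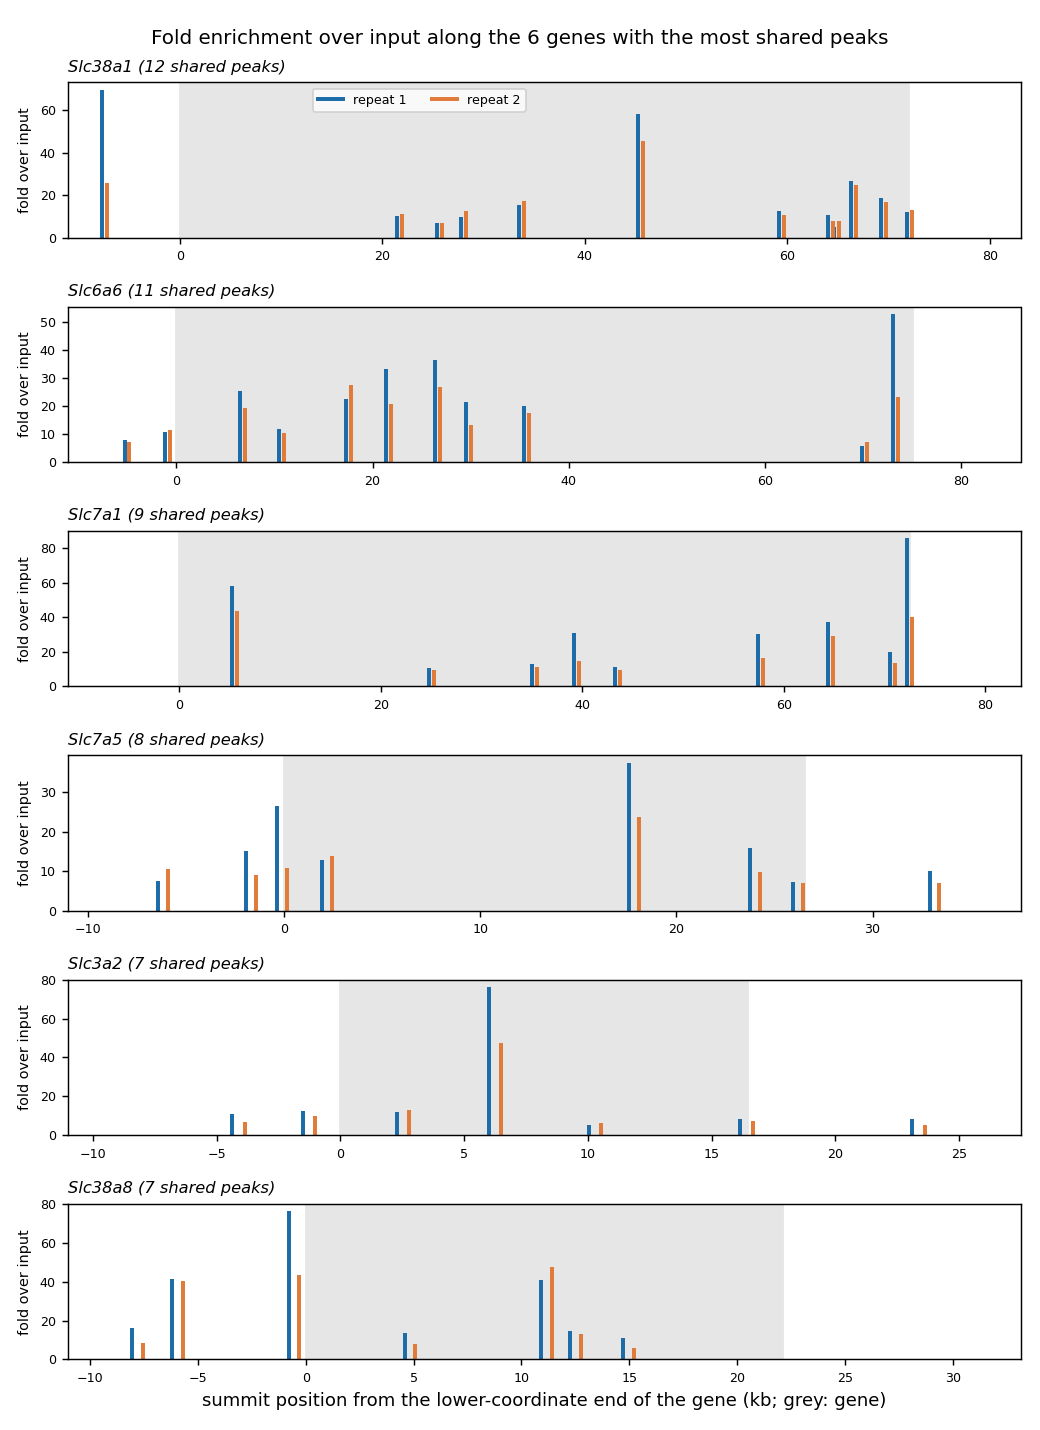
Fold enrichment over input of each shared peak in repeat 1 (left bar of a pair) and repeat 2 (right bar) along the 6 genes with the most shared peaks, against the distance of its repeat 1 summit from the lower-coordinate end of the gene in kb. Bars of a pair are drawn side by side for legibility, and grey marks the gene. In Slc7a5 and Slc3a2 1 peak inside the gene is the highest, and Slc6a6 has peaks from 5.84-fold to 52.8-fold in repeat 1 along its length.

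Slc43a genes encode carriers that move large neutral amino acids without an exchange partner, apart from Slc43a3, a carrier of purine bases. Slc43a2 had 3 shared peaks inside the gene, led by the promoter peak at chr11:75530997-75532760, with 65.04-fold and 54.5-fold. It held 21.8 RPM (19.7 to 23.9) in repeat 1 and 15.9 (14.3 to 17.6) in repeat 2, and these intervals did not overlap. A peak 25.2 kb after the second start site had 38.8-fold and 38.1-fold. Slc43a3 had a single peak, 0.197 kb inside an end of the gene, at chr2:84936133-84937376, with 113-fold and 52.98-fold. Slc43a1 had 6 shared peaks, of which the strongest, 100.4-fold and 28.2-fold, lay 9.09 kb beyond the gene and inside Rtn4rl2. That peak held 16.1 RPM (14.4 to 18.01) in repeat 1 and 4.97 (4.09 to 5.97) in repeat 2, so it was far higher in repeat 1. The strongest peak inside Slc43a1 had 31.4-fold and 21.6-fold.

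Slc38a genes encode mostly sodium-coupled carriers of glutamine, alanine and other neutral amino acids, and they held 40 shared peaks in all. Slc38a1, a carrier of glutamine, had 12 shared peaks, the most of all 60 genes, 10 of them inside the gene of 72.0 kb. Of these 12, 2 matched the same repeat 2 peak. Repeats 1 and 2 alone had 13 and 11 peaks at Slc38a1, fewer than the 14 and 12 at Slc6a6. The strongest peak of Slc38a1 was 58.4-fold and 45.5-fold at chr15:96616284-96617694, with 12.1 RPM (10.6 to 13.7) in repeat 1 and 9.44 (8.22 to 10.8) in repeat 2. A peak 7.41 kb outside the gene had 69.6-fold and 25.5-fold. Slc38a4, which also carries cationic amino acids and is known as an imprinted gene, had 6 shared peaks, 4 of them above 30-fold in both repeats. These were 103-fold and 73.4-fold at chr15:97048179-97050540, 118-fold and 69.5-fold at chr15:97052639-97053770, 68.1-fold and 38.1-fold inside the gene, and 70.5-fold and 46.2-fold at 7.48 kb before it. Repeats 1 and 2 had 371 and 376 tags at the first of these sites and 336 and 315 at the next, so both repeats were high at both.

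Slc38a2, the glutamine carrier that cells induce when amino acids run short, lies beside Slc38a1 on chromosome 15 and differed from it. It had 3 shared peaks, none inside the gene, and the highest pair was 6.76-fold and 7.85-fold. Slc38a8 had 7 shared peaks in a gene of 22.1 kb and its flanks, the strongest 0.539 kb from an end with 76.3-fold and 43.3-fold and another inside the gene with 40.9-fold and 47.9-fold. Slc38a9, a lysosomal carrier that reports arginine to mTORC1, had a peak 290 bp from a start site with 35.3-fold and 31-fold and one inside the gene 3.37 kb from its far end with 64.7-fold and 48.7-fold. Slc38a7, a lysosomal glutamine carrier, had 3 shared peaks, led by one inside the gene with 37.4-fold and 27.5-fold. Slc38a10 had 5, the strongest with 30.4-fold and 19.6-fold, and Slc38a11 had 1 at 6.07 kb with 12.1-fold and 5.89-fold. Slc38a3, a glutamine carrier of liver and brain, had 2 peaks in repeat 1 alone, and Slc38a6 had 2 in repeat 1 and 1 in repeat 2 that did not overlap.

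**Figure D4:**
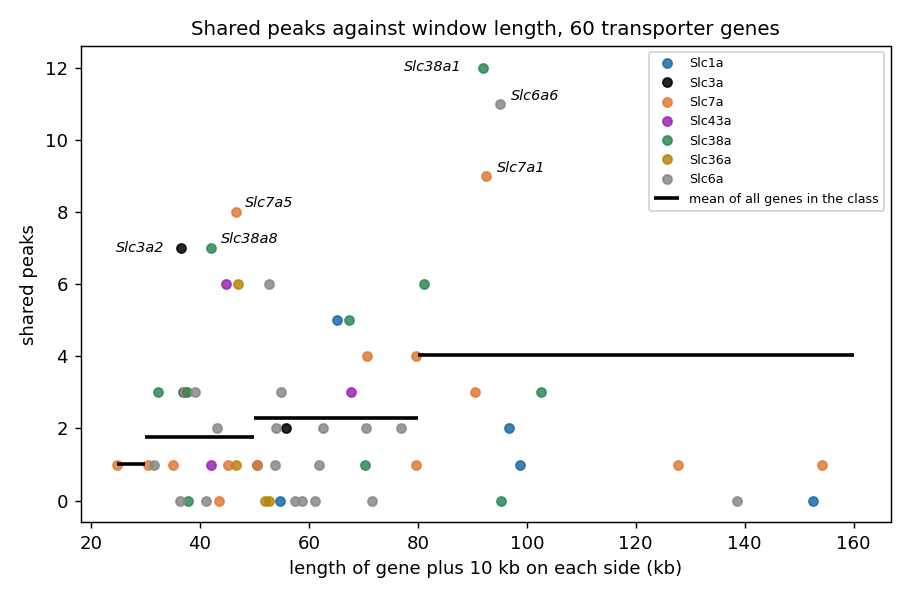
Number of shared peaks against the length of the gene plus 10 kb on each side, for the 60 transporter genes by family. Black lines give the mean over all autosomal protein-coding genes in each class of length, the last class being drawn to 160 kb. Slc38a1, Slc6a6, Slc7a1, Slc7a5, Slc3a2 and Slc38a8 lie well above the lines.

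Slc1a genes encode sodium-coupled carriers of glutamate (Slc1a1, Slc1a2, Slc1a3, Slc1a6 and Slc1a7) and exchangers of small neutral amino acids (Slc1a4 and Slc1a5). Slc1a5, the exchanger through which many dividing cells import glutamine, had the strongest peak of the family, 0.86 kb outside the gene at chr7:16779828-16781167, with 75.8-fold and 65.9-fold. It held 13.4 RPM (11.9 to 15.2) in repeat 1 and 13.9 (12.4 to 15.5) in repeat 2, and these intervals overlapped. The other 2 peaks of Slc1a5 had 28.6-fold and 13.7-fold and 23.8-fold and 14.5-fold. Slc1a4, the related exchanger of serine and alanine, had 1 peak inside the gene with 17.9-fold and 15.3-fold. Of the 5 glutamate carriers, none had a shared peak of 20-fold in both repeats. Slc1a7 had 5 shared peaks, led by one 1.06 kb before its start site with 28.2-fold and 19.7-fold, Slc1a1 had 1, 382 bp before its start site, with 24.2-fold and 14.1-fold, and Slc1a3 had 2 inside the gene, led by 14.01-fold and 12.2-fold. Slc1a2 and Slc1a6, carriers of neurons and glia, each had 1 peak in repeat 1 alone, and the nearest shared peaks were 220.0 kb and 32.6 kb away.

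Slc36a genes encode carriers that move small amino acids together with protons. Slc36a3 had 6 shared peaks, 4 of them inside the gene of 26.9 kb, the strongest at chr11:55146391-55147675 with 78.6-fold and 66.5-fold and another with 50.9-fold and 41.2-fold. Slc36a2, its neighbour, had 1 shared peak, with 10.8-fold and 14.6-fold, which lay in the windows of both genes. Slc36a1, the third gene of this cluster on chromosome 11, and Slc36a4 had no peak of either repeat, and the nearest shared peaks were 46.8 kb and 81.7 kb away. The family's strong sites were thus at Slc36a3 alone among its 4 genes.

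Slc6a is the neurotransmitter carrier family. Its share of genes with a shared peak (63.2%) lay near the unweighted share of all genes (66.9%) and below that of all genes of the same window lengths (76.8%). A shared peak of at least 20-fold in both repeats was present at 26.3% of its genes, against 31.8% of all genes without weighting. The place of Slc6a relative to all genes depended on the flanks. With flanks of 50 kb, 18 of 19 Slc6a genes had a shared peak (94.7%), against 83.3% of all genes without weighting. With flanks of 1 kb and with the gene alone the Slc6a shares were 57.9% and 47.4%, against 53.5% and 46.5%. Slc6a7, the brain carrier of proline, had 86.8-fold and 75.3-fold at its strongest peak, inside the gene and also within 10 kb of Cdx1, and a second peak of 58.2-fold and 50.8-fold outside it lay closer to Camk2a. Slc6a5, the carrier of glycine in inhibitory neurons, had 71.5-fold and 54.9-fold inside the gene at chr7:49914663-49915912, with no other protein-coding gene within 10 kb. That peak held 12.6 RPM (11.1 to 14.3) in repeat 1 and 10.6 (9.30 to 12.03) in repeat 2. Slc6a6, the taurine carrier, had 11 shared peaks, 9 of them inside the gene of 75 kb, the second highest number among the transporters. Its peaks ran from 5.84-fold to 52.8-fold in repeat 1 and from 7.06-fold to 27.5-fold in repeat 2, with 36.4-fold and 26.7-fold the highest pair by the lower value and 52.8-fold and 23.2-fold the highest in repeat 1. Slc6a17, a carrier of synaptic vesicles, had 41.5-fold and 21.98-fold at 8.55 kb inside Kcnc4 and 20.8-fold and 20.01-fold inside its own body. Slc6a12, the carrier of betaine, had 26.9-fold and 28.1-fold at 4.70 kb beyond the gene, closer to Iqsec3, and 45.9-fold and 20.4-fold near the end of Slc6a12 itself.

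The strongest peaks of the remaining 7 Slc6a genes with a shared peak had at most 15.7-fold in the lower repeat. Slc6a16 had 6 shared peaks, led by one inside Cd37 with 25.2-fold and 15.7-fold, and its neighbour Slc6a21 had 1 that lay in the windows of both. Slc6a3, the dopamine carrier, had a peak 532 bp from a start site with 52.7-fold and 15.3-fold, a ratio between repeats that only that of Slc43a1 exceeded among the strongest peaks of the genes. Slc6a4, the serotonin carrier, had 12.5-fold and 8.24-fold at 984 bp before its start site, Slc6a9, the glial glycine carrier, 11.9-fold and 8.24-fold, and Slc6a20a 12.6-fold and 9.03-fold. The 7 without a shared peak were Slc6a2, Slc6a11, Slc6a13, Slc6a15, Slc6a18, Slc6a19 and Slc6a20b, of which Slc6a11 had a peak in repeat 2 alone and the others none. Slc6a18 and Slc6a19, carriers of kidney and gut, adjoin each other on chromosome 13. Slc6a20a and Slc6a20b are related neighbours, and whether tags of 35 bp can be placed uniquely in each was not tested.

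Of the 153 assignments of peaks to transporter genes, 94 lay inside the gene, and the 151 different peaks included 2 that fell in the windows of a pair of transporters. For the 44 genes whose strand was known, 60.2% of 108 assigned peaks were inside, 22.2% before the gene and 17.6% beyond it. Over all autosomal genes with known strand these shares were 59.2%, 21.6% and 19.2%. Within 1 kb of a start site lay 13.9% of the transporters' peaks, against 15.1%. The window of another protein-coding gene also held 44 of the 151 peaks, among them the strongest ones of Slc43a1, Slc3a1, Slc6a7 and Slc6a17. At 31 of the 46 genes the strongest peak lay in no other gene's window, as for Slc7a8, Slc38a4, Slc1a5, Slc36a3 and Slc6a5. Neither this count nor that of the 44 peaks is set beside a share of all genes. Just inside the limit of 10 kb lay the peaks of Slc38a2 at 9.82 kb (10.0-fold and 5.49-fold) and Slc7a4 at 9.74 kb. Just outside it were peaks at 10.1 kb from Slc38a4 (5.89-fold and 12.2-fold) and at 10.6 kb from Slc38a10 (81.0-fold and 50.6-fold), and one of 121-fold and 141-fold lay 10.97 kb from Slc6a16.

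The repeats gave similar orders of the transporters' peaks but different heights. Over the 151 shared peaks, fold enrichment ran from 4.83 to 122 in repeat 1 and from 4.71 to 91.8 in repeat 2, and the medians were 15.9-fold and 12.95-fold. Fold enrichment was higher in repeat 1 at 117 peaks (77.5%), as at 77.3% of all 43258 autosomal shared peaks. Spearman's rho between repeats was 0.85 over these 151 peaks and 0.80 over all of them, as a description across regions that share both libraries. Summits lay a median of 30 bp apart, and 133 pairs lay within 100 bp. RPM differed beyond both counting intervals at 34 peaks (22.5%), as at 23.1% of all autosomal shared peaks, with repeat 1 higher at 31 of the 34, and the called peaks differed in length between repeats. Peaks of 1 repeat alone numbered 40 in repeat 1 and 17 in repeat 2 at these genes, with median fold enrichments of 7.68 and 6.28. The highest of them, 24.3-fold in repeat 1, lay at Slc38a10.

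**Figure D5:**
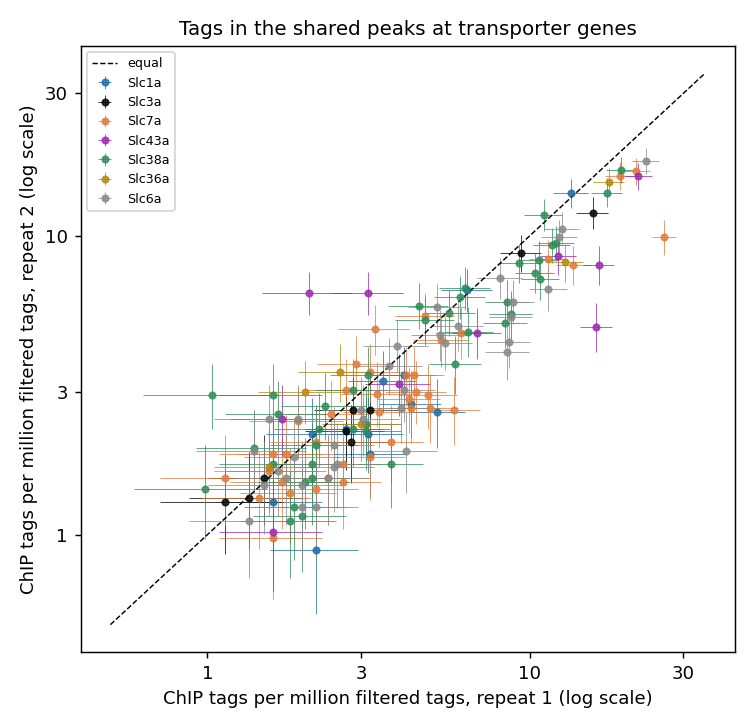
ChIP tags in each shared peak at the transporter genes, in RPM (tags per 1000000 filtered ChIP tags), in repeat 2 against repeat 1 on log axes, with exact Poisson 95% intervals, coloured by family. The dashed line marks equal values. Most points lie below the line, and the points of Slc43a1 and Slc7a5 are among those farthest from it.

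Other genes of amino acid supply were counted in the same way. Of 21 autosomal carriers outside these name families, which include mitochondrial, vesicular and peptide carriers, 14 had a shared peak (66.7%). The strongest were at Slc15a1, a peptide carrier (58.9-fold and 62.8-fold), Slc25a13 and Slc25a12, mitochondrial carriers of aspartate and glutamate (52.2-fold and 41.2-fold, 55.6-fold and 27.5-fold), and Slc17a5, a lysosomal carrier (34.0-fold and 31.1-fold). Of 42 enzymes of amino acid synthesis and breakdown, 36 had one (85.7%). Among them were Cth, of cysteine synthesis (135-fold and 102-fold), Tdh, the threonine dehydrogenase on which mouse embryonic stem cells are known to depend (114-fold and 101-fold, 1 bp from an end of the gene), and Amt, of glycine cleavage (72.3-fold and 80.8-fold). Of 34 autosomal genes of amino acid sensing and the stress response, 30 had one (88.2%), with the strongest at Nfe2l2, a regulator of the oxidative stress response (91.5-fold and 64.8-fold), Rptor, a subunit of mTORC1 (79.0-fold and 51.7-fold, 19 shared peaks), Sesn1, a stress-induced inhibitor of mTORC1 (47.7-fold and 48.7-fold), and Nprl3, a subunit of a complex that restrains mTORC1 (90.3-fold and 43.6-fold). The share of all autosomal protein-coding genes was 66.9%. The enzyme and sensing lists had median gene lengths of 20.3 and 15.3 kb, against 34.8 kb for the transporters and 17.5 kb for all genes. The shares of these lists are not set against genes of the same window lengths.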

How the data were processed

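Per the file headers, the authors called peaks with MACS 1.4.1, ChIP against the input of the same repeat, separately for each repeat and without pooling, at a p-value limit of 1e-05 with tags of 35 bp, d of 200 bp and at most 2 duplicates per position. CASAVA 1.8.2 is listed in the submitters' processing notes, while the aligner is not named in any source used here. Each deposited peak has a raw count of its ChIP tags, a fold enrichment that the authors give as a ratio to local background, a score that per the file headers is -log10 of the p-value multiplied by 10, and a deposited FDR in percent (highest in either list 0.12%). The authors' filtered ChIP tags numbered 19353473 and 22555373, and the filtered input tags 18446758 and 23825930.

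The notes name mm9, but chromosome Y peaks reach position 90784139, and on all 18 autosomes with start sites in the promoter table shared summits lay within 500 bp of a GRCm38 start site more often than after a shift of 1 Mb, so GRCm38.p6 gene and promoter tables from RefSeq were used. Everything else was computed here with Python 3.11.15, pandas 2.3.3, numpy 2.4.6 and scipy 1.17.1, and the matching was tested on simulated peaks. No statistical test was run across genes. Counting intervals are exact Poisson 95% intervals of tag counts, scaled to filtered tags, and cover counting error only. Genes named with values were those with a shared peak of at least 20-fold in both repeats (up to 6 per family), the gene with most peaks of each family and the 4 strongest of each list, and the remaining genes were added to account for the members. The values of 1 transporter gene and of 1 listed gene are not reported here, though both are in the counts. The members, lists and rules were chosen with earlier results of these data known. Of 100 listed genes, Slc66a4 and Samtor matched no symbol and Tfe3 lies on chromosome X. The alternatives used each repeat alone, higher limits on fold or score, closer overlap between repeats, other flanks, the gene alone and the nearest gene only.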

Additional observations from a re-analysis of the deposited data

How the results depend on the processing

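No paired analysis was possible because each input was already used by the authors in calling the peaks, and no test was made. Of 90 recomputed counts, that is 9 counts under 10 settings, 84 stayed within 1.5 times the reported value. The number of shared peaks at the transporters was 151 and became 91 with at least 10-fold in each repeat, 94 with the gene alone and 311 with flanks of 50 kb. Slc7a genes with a shared peak went from 14 to 9 with flanks of 1 kb and to 9 with the gene alone, and Slc36a genes from 2 to 1 with the gene alone, while the share of all genes went from 66.9% to 53.5% and 46.5%. Slc6a genes with a shared peak went from 12 to 18 of 19 with flanks of 50 kb, where the share of all genes was 83.3%. Leaving out a repeat gave 48 to 50 transporter genes with a peak, against 46, and 166 to 191 peaks, with 70.5% to 73.7% of all genes against 66.9%. The place of Slc1a among the families changed with the repeat used. With repeat 1 alone all 7 Slc1a and all 10 Slc38a genes had a peak, and with repeat 2 alone 5 and 9 had one. Slc6a genes numbered 12 and 13 of 19, and the counts of Slc3a, Slc7a, Slc36a and Slc43a stayed the same. With each peak counted for the nearest protein-coding gene only, 42 of 60 transporters had one (70.0%) against 57.4% of all genes, as did 11 of 15 Slc7a genes. Each fold enrichment rests on 1 ChIP library, and the peaks of 1 repeat alone had median fold enrichments of 7.68 and 6.28. The part of depth in these was not tested, and the repeat with more filtered tags had fewer peaks.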

Other observations

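The name families hold 4 more protein-coding genes on chromosome X, outside the rule, where 29.5% of 966 genes had a shared peak in the gene or within 10 kb. Slc6a8, the carrier of creatine, had 2 shared peaks, the strongest with 71.5-fold and 44.3-fold. Slc38a5, a glutamine carrier, and Slc7a3, a carrier of cationic amino acids, had 1 each, with 9.66-fold and 9.03-fold, and 9.18-fold and 10.99-fold. Slc6a14 had no peak of either repeat.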
